A study of Sus scrofa with 2 samples.

Results

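miR-103 and miR-107 are a pair of nearly identical miRNAs, and here every form of them between 18 and 26 nt was counted in small RNA libraries of pig oocytes, with attention to the forms cut short at the 3' end. A read was a member when it held nt 2 to 18 of mature miR-103-3p without mismatch, a stretch that miR-107 shares, and began within 2 nt of the 5' end. The rule found 42 distinct sequences with 2837 reads, among 1166705 distinct sequences with 23819085 reads in all. Of these sequences, 35 were present in control and 33 in Dicer KD, 26 in both, 12 had a single read, and 9 had at least 20 reads over both libraries. The control library held 835 member reads and the Dicer KD library 2002. The set was chosen because its 18-nt form was known to differ between these libraries, so the values below are a description and no test was made on them.

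The study sequenced small RNA from pig oocytes matured in vitro for 42 h to metaphase II, in 1 control library and 1 library of oocytes whose Dicer had been knocked down (Dicer KD) by siRNA at the germinal vesicle stage. Dicer is the ribonuclease that cuts miRNA hairpins and double-stranded RNA into small RNAs. What the control oocytes received is not described in the labels, nor is how many oocytes or animals were pooled. With 1 library per group there is no replicate error, and a difference between the libraries cannot be assigned to the conditions. Total depth was 11836160 reads in control and 11982925 in Dicer KD. All intervals are exact 95% intervals that cover counting error alone, as reads copied by PCR and not tagged are no count of separate molecules. Fewer molecules per oocyte and fewer oocytes of a kind in the pool cannot be told apart. The Dicer transcript was not analysed here, so the knockdown itself was not checked, and mRNAs that define oocytes are outside what these libraries measure.

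As background, a miRNA guides an Argonaute protein to target mRNAs, mainly through its seed, nt 2 to 8 from the 5' end. In mammals miR-103 and miR-107 lie in introns of pantothenate kinase genes, and Dicer's own mRNA is among the known targets of this family in mammalian cells. Both come from the 3' arm of their hairpins, where Dicer makes the 5' end and Drosha the 3' end. Mature miRNAs can later lose bases at the 3' end to exonucleases or gain A or U there. In the RefSeq gene table of the pig assembly Sscrofa11.1, MIR103-1 lay within PANK3, MIR103-2 within PANK2 and MIR107 within PANK1.

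The forms that carry the results are shown 5' to 3', read from the deposited tables, with the seed in capitals and T standing for U. The 18-nt and 19-nt forms are the ones that were more abundant in the Dicer KD library. The 21-nt and 23-nt forms were the main ones in the control library, and the 23-nt form is full-length miR-103-3p. The last pair shows the commonest ends that do not match it.
18-nt form: aGCAGCATtgtacagggc
19-nt form: aGCAGCATtgtacagggct
21-nt form: aGCAGCATtgtacagggctat
23-nt form: aGCAGCATtgtacagggctatga
22-nt form ending in an unmatched a: aGCAGCATtgtacagggctata
23-nt form ending in an unmatched t: aGCAGCATtgtacagggctatgt

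The 18-nt form was rare in control and the most abundant member in Dicer KD. It had 30 reads, or 2.53 RPM (reads scaled to the total of their library), among control reads and 1109 reads, or 92.5 RPM, among Dicer KD reads, a KD/control ratio (Dicer KD RPM over control RPM) of 36.5 (25.4 to 54.4). All of these reads were the single sequence shown above. It therefore began at nt 1 and lacked the last 5 bases of the 23-nt form, while its whole seed is required by the rule. The 18-nt form ranked 240th among the 18-nt sequences of the control library and 12th among those of the Dicer KD library. Its share of all 18-nt reads was 0.0387% (Clopper-Pearson interval 0.0261 to 0.0552%) and 1.12% (1.06 to 1.19%).

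The 19-nt form was higher too, by a smaller ratio. Reads of 19 nt, the 18-nt form with the next base of the miRNA in all but 1 of them, went from 72 to 338, a KD/control ratio of 4.64 (3.59 to 6.07). That base is T, so an 18-nt form with an added U would read the same and cannot be told apart. Reads of 20 nt were few, 6 and 11, and the interval of their KD/control ratio, 0.614 to 5.96, is too wide at this depth to show a direction. Both short forms were thus higher in the Dicer KD library. Because of the 19-nt reads, the class of 19 to 21 nt as a whole was also higher, with 329 and 487 reads and a ratio of 1.46 (1.27 to 1.69). Without them, reads of 20 to 21 nt were lower, with 257 and 149 reads and a ratio of 0.573 (0.465 to 0.703).

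Longer forms were lower in the Dicer KD library, or within counting error of the control. The 21-nt reads, which end just before the base that separates the miRNAs, went from 251 to 138, a KD/control ratio of 0.543 (0.438 to 0.671). Reads of 22 to 26 nt, the full-length class, went from 476 to 406, a KD/control ratio of 0.842 (0.736 to 0.964). The interval included equal levels when the libraries were scaled by median-of-ratios size factors (0.767 to 1.005) or by TMM (0.770 to 1.008). Within that class the ratio was 0.782 (0.587 to 1.04) at 22 nt, 0.873 (0.740 to 1.03) at 23 nt and 0.903 (0.541 to 1.502) at 24 nt, and each of these intervals includes equal levels. The 23-nt form of miR-103-3p itself had 253 and 202 reads, a KD/control ratio of 0.789 (0.652 to 0.953). A 22-nt form that matches to its end, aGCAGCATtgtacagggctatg, had 46 and 51, with an interval of 0.721 to 1.67 for the ratio. Reads of 25 nt were 15 and 7, and reads of 26 nt 0 and 1.

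**Figure D1:**
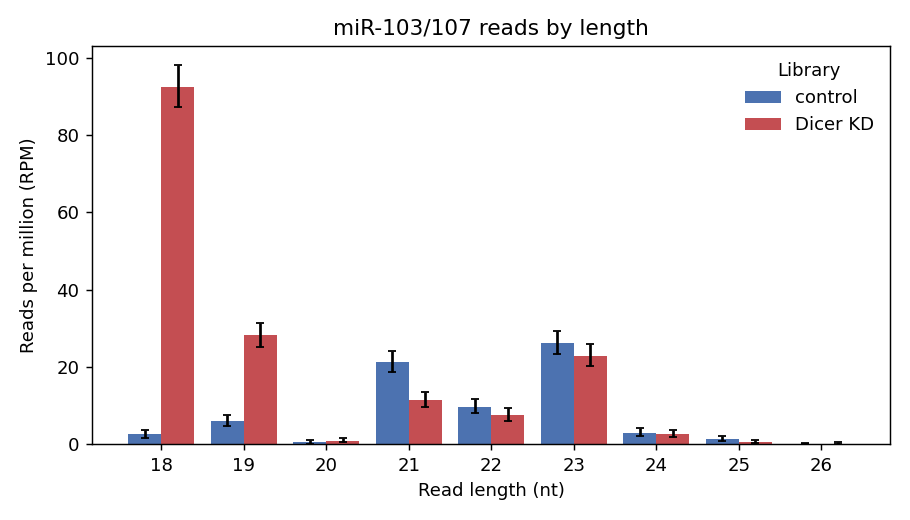
RPM of miR-103 and miR-107 forms at each length from 18 to 26 nt, in the control library (blue) and the Dicer KD library (red); bars show 1 library each and error bars exact 95% Poisson intervals for counting error. The 18-nt bars stand at 2.53 RPM (control) and 92.5 RPM (Dicer KD), while the 21-nt bar goes from 21.2 to 11.5 RPM.

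The gain in short forms was much larger than the loss in long ones. Reads of 18 to 19 nt were higher by 112 RPM in the Dicer KD library, and reads of 20 to 26 nt were lower, a change of -15.6 RPM. Summed over 18 to 26 nt, the members went from 70.5 to 167 RPM, a KD/control ratio of 2.37 (2.18 to 2.57). A count of this miRNA that starts at 18 nt and one that starts at 20 nt therefore gave opposite directions, since reads of 20 to 26 nt had a ratio of 0.748 (0.669 to 0.836).

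The make-up by length does not depend on how the libraries were scaled. The 18-nt form made up 3.59% of control member reads (2.44 to 5.09%) and 55.4% of knockdown member reads (53.2 to 57.6%), an odds ratio of 33.3 (22.9 to 50.2). The class of 22 to 26 nt went the other way, from 57.0% (53.6 to 60.4%) to 20.3% (18.5 to 22.1%). The length of the commonest member thus differed between the libraries, 23 nt in one and 18 nt in the other. The class of 19 to 21 nt made up 39.4% (36.1 to 42.8%) and 24.3% (22.5 to 26.3%).

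With the 18-nt reads set aside, a shift to short forms was present at 19 nt but not among longer reads. Among reads of 19 to 26 nt, the 19-nt share was 8.94% (7.06 to 11.1%) for control and 37.8% (34.7 to 41.1%) for Dicer KD. Among reads of 20 to 26 nt, the 21-nt share was 34.2% (30.8 to 37.8%) and 24.9% (21.3 to 28.7%), an odds ratio of 0.636 (0.493 to 0.818). The 23-nt share of those reads was 42.4% (38.8 to 46.1%) and 49.5% (45.3 to 53.8%), an odds ratio of 1.33 (1.06 to 1.67). Reads of 20 to 26 nt thus leaned to the longer form in the Dicer KD library.

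Reads of the same lengths that are not members did not shift in this way. Other 18-nt reads, pooled, were 1.24-fold higher in the Dicer KD library (1.23 to 1.26), and other 19-nt reads had a ratio of 1.003 (0.995 to 1.01). In the 18-nt pool, 1 sequence alone had 5413 and 17961 reads. The median ratio of the 155 other 18-nt sequences with 100 reads or more was 0.988. At 21 nt the ratio of other reads was 0.955 (0.9503 to 0.959), against 0.543 for the members, and at 22 nt it was 0.930 (0.927 to 0.932). Relative to other 18-nt reads, the ratio of the 18-nt form was 29.4 (20.4 to 43.7).

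**Figure D2:**
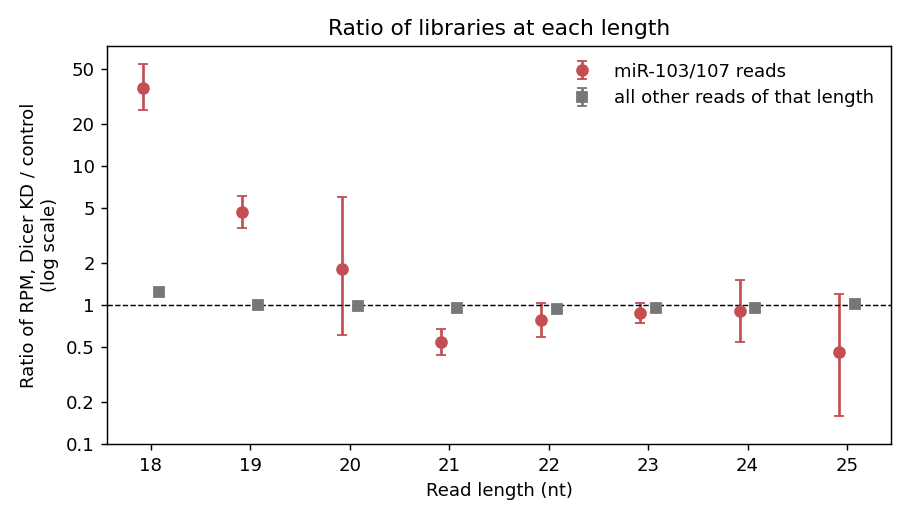
Ratio of RPM in the Dicer KD library to that in the control library (log scale) by read length from 18 to 25 nt, for miR-103 and miR-107 reads (red circles) and for all other reads of that length (grey squares), with exact 95% intervals for counting error and a dashed line at equal levels. The members fall from 36.5 at 18 nt through 4.64 at 19 nt to 0.543 at 21 nt, while the other reads stay between 0.930 and 1.24.

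Within the starts that the rule allows, the 5' end was the same in nearly all reads. All 2002 knockdown reads and 834 of the 835 control reads started at nt 1, and the remaining control read had 1 extra base at the 5' end. The rule requires nt 2 to 18, so every member, short or long, holds the seed by construction, and the data do not test this. Just outside the rule on starts, 3 reads in each library began at nt 3. Just outside the rule on mismatches, 5 control and 15 knockdown reads of 18 to 26 nt had 1 mismatch in nt 2 to 18.

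Most reads that reached the base by which the miRNAs differ had the base of miR-103. The miRNAs differ by G22C, counted from the 5' end, with the base of miR-103 first and that of miR-107 second. Of 475 control reads and 406 knockdown reads that reached nt 22, 379 (79.8%) and 343 (84.5%) had the miR-103 base, a KD/control ratio of 0.894 (0.770 to 1.04). Neither base was present in the reads with A at nt 22, 78 (16.4%) and 49 (12.1%), and in those with T, 8 and 3. The miR-107 base was present in 10 (2.11%, 1.01 to 3.84%) and 11 (2.71%, 1.36 to 4.80%). The whole 23-nt form with the miR-107 base had 0 reads in both libraries, against a floor of 3 reads, or 0.253 and 0.2504 RPM. miR-107 reads and miR-103 reads with an added C cannot be told apart on this base alone, so the data do not show miR-107 itself, and the name of the pair rests on the shared stretch.

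Reads that end before nt 22 are shared by both miRNAs. They numbered 360 in control and 1596 in Dicer KD, a KD/control ratio of 4.38 (3.90 to 4.92). The 18-nt and 19-nt forms belong here, and which of the genes gave rise to them cannot be read from their bases.

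Some reads ended in bases that do not match miR-103-3p, and the make-up of these bases differed between the libraries. Over all members of 18 to 26 nt, 18.1% (15.5 to 20.9%) of control reads and 7.29% (6.19 to 8.52%) of knockdown reads departed from its sequence at or before nt 23, an odds ratio of 0.356 (0.277 to 0.458). The direction was opposite once the 18-nt and 19-nt reads, nearly all of which match, were set aside. Of reads of 20 to 26 nt, 20.6% (17.7 to 23.7%) for control and 26.1% (22.5 to 29.99%) for Dicer KD departed in this way, an odds ratio of 1.36 (1.04 to 1.78). The departing reads include those with C at nt 22 and a form with a mismatch before further matching bases, so whether the unmatched bases were added to the RNA was not tested. An added base that equals the next base of miR-103-3p counts as matching here. In the control library 57.6% (49.3 to 65.6%) of the 151 departing reads ended in A alone after the last matching base, and in the Dicer KD library 35.2% (27.4 to 43.5%) of 145. T alone, which is U in the RNA, ended 29.8% (22.6 to 37.8%) and 42.1% (33.9 to 50.5%). The share with A was thus lower in the Dicer KD library beyond counting error (odds ratio 0.400, 0.243 to 0.655), and the share with T was higher (1.71, 1.03 to 2.85).

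The commonest of these forms show the same pattern for A, and for T a difference within counting error. The 22-nt form ending in an unmatched a had 48 control and 24 knockdown reads, a KD/control ratio of 0.494 (0.289 to 0.822). The 21-nt form that precedes its last a had 240 and 128, a ratio of 0.527 (0.422 to 0.656). The 23-nt form ending in an unmatched t had 31 and 49, a KD/control ratio of 1.56 (0.976 to 2.53), an interval that includes equal levels. The 22-nt form that precedes its last t had 46 and 51. The A and T shares were not compared at a fixed last matching base. Whether they differ apart from the length of the matching part was not tested. The 23-nt form that ends in 2 unmatched a had 16 reads in each library. Another 40 control and 26 knockdown reads matched all 23 bases and ran past them, 15 and 12 of them in a 24-nt form with 1 more a. Whether those extra bases are encoded in the hairpin was not tested.

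**Figure D3:**
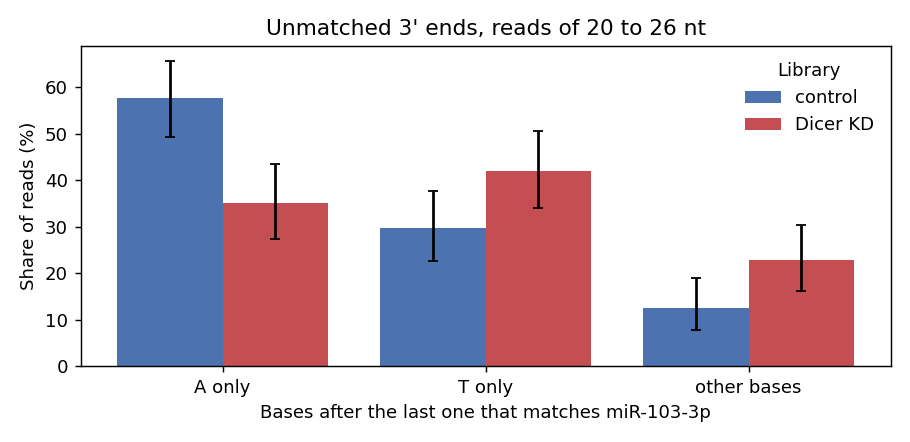
Share of reads (percent) whose bases after the last one that matches miR-103-3p are A only, T only or other, among the 151 control (blue) and 145 knockdown (red) reads of 20 to 26 nt that depart from it by nt 23, with exact 95% binomial intervals. A only is at 57.6% in the control library and 35.2% in the Dicer KD library, and T only at 29.8% and 42.1%.

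Other miRNAs were counted by the same rule to see how often 18-nt forms differ between these libraries. Of 13 other miRNAs with at least 20 reads of 18 nt in both libraries together, 6 were higher by 2-fold or more in the Dicer KD library, which is 46.2%, and 1 was lower by as much, which is 7.69%. The list of miRNAs was written after values of these libraries had been seen, and miR-92b and miR-99b were entered with their 18-nt counts known. Without that pair, 4 of 11 were higher, which is 36.4%, and 1 was lower, which is 9.09%. The minimum was set on the sum of both libraries, and of the 6 only miR-10b reached it in control, with 501 reads. miR-92b, miR-99b, miR-101, miR-10a and miR-151-5p had 1 to 10 control reads and passed only through their Dicer KD reads. These shares therefore depend on the filter and do not measure how common a higher 18-nt form is. As miR-10b was 2-fold higher too, a difference of that size is not particular to miR-103 and miR-107. Of 155 other 18-nt sequences of any origin with 100 reads or more, 11.0% were higher by 2-fold or more and 14.2% lower by as much. For 19-nt forms, with the same summed minimum and the same limit, 11 of 24 other miRNAs were at least 2-fold higher. That is 45.8%, and 0 were 2-fold lower. Without miR-92b and miR-99b, 9 of 22 were higher, which is 40.9%. For forms of 22 to 26 nt, with a summed minimum of 100 reads, 8 of 44 were at least 2-fold higher, which is 18.2%, and 2 at least 2-fold lower, which is 4.55%. Of the 8, miR-143, miR-222, miR-30e and miR-378 had 46 to 65 control reads. They passed only through their Dicer KD reads, so this share depends on the filter too.

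The miRNAs with the most 18-nt reads besides the members were miR-10b, miR-182, miR-92b, let-7a and miR-99b. miR-10b, the most abundant of the listed miRNAs here, had 501 and 3280 reads of 18 nt, a KD/control ratio of 6.47 (5.88 to 7.12), while its forms of 22 to 26 nt had a ratio of 0.995 (0.991 to 0.9999). miR-92b, a member of the miR-25 seed family, had 1 and 123 reads of 18 nt, a KD/control ratio of 121 (21.4 to 4837). miR-99b, of the miR-100 seed family, had 1 and 74, a KD/control ratio of 73.1 (12.7 to 2926). These miRNAs thus shared the direction of the members, with few control reads behind the last pair. The others did not: miR-182 had 379 and 304 reads of 18 nt, a KD/control ratio of 0.792 (0.679 to 0.924), and let-7a had 65 and 53, a KD/control ratio of 0.805 (0.550 to 1.18).

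The 18-nt forms of miRNAs that were higher alongside the members are shown because they share no seed with them. The capitals mark the seed, which the matching rule requires in each.
miR-92b, 18 nt: tATTGCACtcgtcccggc
miR-99b, 18 nt: cACCCGTAgaaccgacct
miR-10b, 18 nt: tACCCTGTagaaccgaat
miR-10a, 18 nt: tACCCTGTagatccgaat
The ratio of the 19-nt forms was 20.9 (12.3 to 38.7) for miR-92b, 8.89 (4.07 to 23.01) for miR-99b, 3.30 (3.16 to 3.45) for miR-10b and 16.6 (6.84 to 52.4) for miR-10a, against 4.64 for the members. The other 2 of the 6 miRNAs with a higher 18-nt form were not higher at 19 nt beyond counting error. miR-151-5p had 10 and 51 reads of 18 nt but 2 and 0 of 19 nt, and miR-101 had 3 and 18 of 18 nt and 34 and 41 of 19 nt, where the KD/control ratio was 1.19 (0.738 to 1.94). The 22 to 26 nt forms of these miRNAs did not move together, with ratios of 1.39 (1.29 to 1.49) for miR-92b, 0.426 (0.353 to 0.512) for miR-99b, 3.81 (3.20 to 4.55) for miR-10a, 0.462 (0.265 to 0.783) for miR-151-5p and 1.49 (1.36 to 1.64) for miR-101.

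Among miRNAs with at least 100 reads of 18 to 26 nt in each library, the share of 18-nt reads changed most in the members. The members were chosen for a difference in that form. The share was higher by 51.8 percentage points in the Dicer KD library for miR-103 and miR-107. Among the 40 others with that many reads, the change ran from -0.946 to 17.7 points, with a median of 0. The 5 closest were miR-99b, from 0.193% to 17.9%, miR-151-5p, from 2.43% to 15.3%, miR-92b, from 0.0561% to 3.15%, miR-10a, from 1.72% to 4.77%, and miR-101, from 0.314% to 1.23%. This likeness is over 2 libraries only. Among miRNAs with fewer reads, miR-152 had 0 of 1 control read and 15 of 28 knockdown reads at 18 nt, a share of 53.6% in the Dicer KD library.

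Reads were also grouped by their first 18 nt, which needs no list of miRNAs. This counts the same 18-nt reads for which the set was chosen, so the ranks below describe that choice and add no separate support. Of 387 such families with at least 20 reads of 18 nt and 100 reads of 22 to 26 nt, the members' family ranked 6th by the ratio of its 18-nt reads and 1st by the change in its 18-nt share. The ratio had a median of 0.988 over the 387 families, and 9 were at least 10-fold higher, the members and 8 of the other 386, which is 2.07%. Those 8 had 0 to 3 control reads of 18 nt and passed the minimum of 20 only through the Dicer KD library. Of the other 386, 11.1% were at least 2-fold higher and 11.9% at least 2-fold lower. Of the 9 families, 3 were the members, miR-92b and miR-99b, and 6 were not in the list of miRNAs used here. The last base of the 18-nt form was C in 5 of the 9, as in the members, and in 36.4% of all 387.

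**Figure D4:**
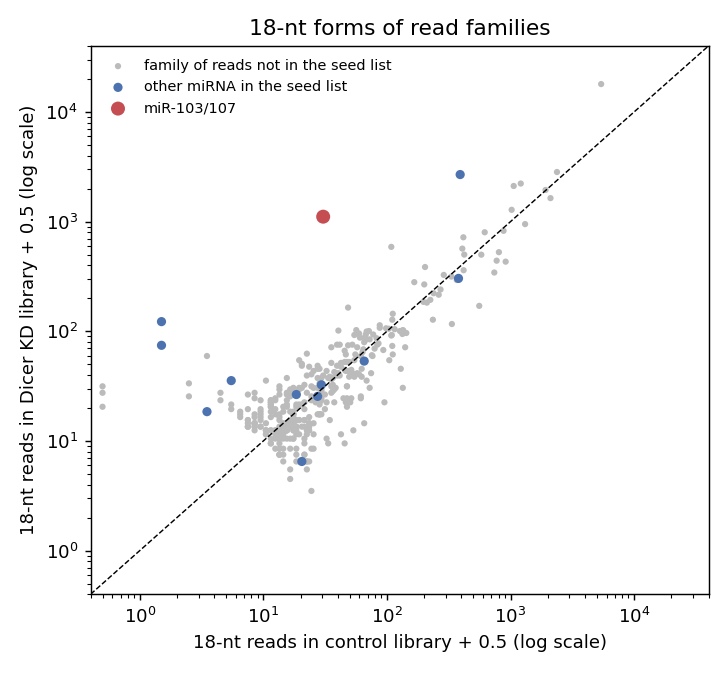
Reads of 18 nt in the Dicer KD library against the control library (both log scale, 0.5 added) for 387 families of reads that share their first 18 nt, with miR-103 and miR-107 in red, other listed miRNAs in blue and families not in the list in grey, which can include listed miRNAs read from another start; the dashed line marks equal read counts. The red point is at 30 and 1109 reads, above the bulk of the families, together with miR-10b at 391 and 2687 reads from nt 1.

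Relatives of the members with a like 5' end showed almost no 18-nt reads. The group of miR-15, miR-16 and their relatives shares bases near the 5' end with miR-103 and miR-107 and is known for roles in the cell cycle and metabolism. Its 7 other listed members, miR-15a, miR-15b, miR-16, miR-195, miR-424, miR-497 and miR-503, had 0 control reads and 1 knockdown read of 18 nt together. At 19 to 26 nt they had 1115 and 1030 reads, a KD/control ratio of 0.912 (0.838 to 0.994). miR-16 made up most of these, with 1057 and 927 reads. Of the 4 of them with 10 reads or more, miR-497 was at least 2-fold higher and 0 were lower by as much. Among all 71 listed miRNAs with that many reads besides miR-103 and miR-107, these 4 included, 29.6% were higher and 2.82% lower. The minimum was set on the sum of both libraries. Some of the higher ones passed it only through their Dicer KD reads, such as miR-130a with 9 and 338.

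Some miRNAs that mark other cells were higher in the Dicer KD library too. The stromal list, 7 miRNAs of connective tissue and vessels, went from 28.8 to 127 RPM at 19 to 26 nt, a KD/control ratio of 4.40 (3.91 to 4.96). That ratio is mainly miR-143, with 284 of the 341 control and 1402 of the 1518 knockdown reads. Of the 3 stromal miRNAs with 10 reads or more, miR-143 and miR-126-5p were at least 2-fold higher. miR-126-5p had 1 and 18 reads and passed that minimum only through its Dicer KD reads. The third, miR-199a-3p, had 54 and 93 reads, a ratio of 1.70 (1.20 to 2.43). Among the 71 listed miRNAs with 10 reads or more besides miR-103 and miR-107, these 3 included, 29.6% were at least 2-fold higher. That share has the same limit, as the minimum was set on the sum of both libraries. miR-145 and miR-214 were at 0 in both libraries and miR-199a-5p was at 0 in control. The 18-nt reads of the whole list numbered 2 and 9. The granulosa list had a ratio of 1.29 (1.24 to 1.33), which is that of miR-21, with 5475 of its 5591 control reads. Of its other members, which all had reads, miR-202-5p had 6 and 32 reads, a ratio of 5.27 (2.17 to 15.4), while miR-383 had 47 and 27, a ratio of 0.567 (0.340 to 0.930), and miR-132 57 and 44. The blood list had a ratio of 1.32 (1.16 to 1.51), mainly that of miR-486, with 413 of the 420 control and 559 of the 563 knockdown reads. Its other member with 10 reads or more, miR-451, had 7 and 4, a ratio of 0.564 (0.121 to 2.22). Of these 2, 0 were past 2-fold, and miR-144, miR-223, miR-142-3p and miR-142-5p were at 0 in both libraries. The part of such cells in the short forms of miR-103 and miR-107 was not tested.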

How the data were processed

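The authors deposited 1 table per library with the raw read count of each distinct sequence of 18 to 44 nt, with no header, beside its length in nt as another column. Illumina adapter ligation libraries were made from total RNA, per the labels' protocols. The submitters' processing notes name Bowtie2, and neither its version nor a genome build or trimming settings are given in the sources used here. Reads shorter than 18 nt were not analysed here, so cuts beyond that length are not counted.

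The members and lists were chosen with earlier results of these data known. No table of miRNA sequences or genome was used. miRNAs were recognised in the deposited reads by their first base, their seed and a further run of bases, written from background knowledge for 85 miRNAs, of which 78 had reads. This list was compiled after read counts of both libraries had been examined by their first 18 nt. miR-92b and miR-99b were entered with their 18-nt counts known, and miR-92b was separated from miR-92a for that reason. The most abundant read of 20 to 25 nt with these marks served as the reference form. This replaced the planned reference table, also for the reads that values were scaled to. The base of miR-107 at nt 22 is background knowledge too. Passenger strands were not analysed here, and 3' ends were compared with the mature form alone.

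RPM is relative to all reads of a library. Ratios have exact conditional binomial intervals, shares Clopper-Pearson intervals, both at 95%. No p-value was computed, as each group has 1 library. Ratios of families had 0.5 reads added. miRNAs named besides the members were the 5 with the most 18-nt reads, the 5 closest in the change of the 18-nt share and the group of miR-15 and its relatives, and marker miRNAs counted as detected with 10 reads. Member forms named were the most abundant of a length that had 20 reads or more over both libraries, and those with unmatched ends likewise. The 2-fold rule was run on simulated counts of 156 sequences of 18 nt, with counting error alone. It recovered 20 of 20 at 30-fold, 20 of 20 at 4-fold and 15 of 20 at 0.25-fold, where low counts fell under the minimum of 100 reads. It called 0 of 96 unchanged ones. The simulation did not cover the comparisons with a minimum of 20 reads, where counting error is larger. The software was scipy 1.17.1, pandas 2.3.3, numpy 2.4.6 and matplotlib 3.10.9 under Python 3.11.15.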

Additional observations from a re-analysis of the deposited data

Results flagged for a closer look

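Reads of 18 nt with 1 mismatch in nt 2 to 18, which the member rule leaves out, were present in the knockdown library and not in the control library, with 7 against 0 reads. They were 7 distinct sequences with a single read each and equalled 0.631% of the exact 18-nt reads of the knockdown library. The exact form had 1109 reads there and only 30 in control, so the 0 in control does not show a separate difference. In the class of 22 to 26 nt the reads with 1 mismatch were 4 and 5.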

How the results depend on the processing

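The ratio of the 18-nt form stayed between 29.4 and 38.2 under 11 other choices of scaling, rare reads, start, mismatch and 3' end. It was 14.0 for reads of 18 to 19 nt together, a choice made after seeing the data, as were 20 to 21 nt, 19-nt forms of other miRNAs, families of reads and the counts without miR-92b and miR-99b. The ratio for 19 to 21 nt was 0.573 for reads of 20 to 21 nt only. The ratio for 22 to 26 nt ran from 0.833 to 0.881, and its interval reached past 1 with median-of-ratios (to 1.005) and TMM scaling (to 1.008), under which the lower level is within counting error. Counting reads that match miR-103-3p from end to end gave 2.81 for all lengths, and an odds ratio of 0.361 for the share of 19 to 21 nt.

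Numbers of other miRNAs and sequences past the threshold moved with the threshold and the read minimum. At 4-fold, 0 miRNAs had a lower 18-nt form, 2 a higher and 0 a lower form of 22 to 26 nt, 3 sequences of 18 nt were lower, 6 miRNAs had a higher 19-nt form, and 15 families were higher and 8 lower. At 10-fold these were 4 miRNAs for 19 nt, and 8 families higher and 0 lower. With the interval itself past 2-fold, 0 miRNAs had a lower 18-nt form, 5 a higher and 1 a lower form of 22 to 26 nt, and 11 sequences were lower. With a read minimum 5 times higher, 2 of 4 miRNAs had a higher and 0 a lower 18-nt form, 4 of 31 a higher form of 22 to 26 nt, and 6 of 40 sequences were higher and 5 lower. With a minimum of 1 read these were 20 and 6 of 35 miRNAs, 22 and 6 of 74 miRNAs, and 10355 and 10638 of 23338 sequences. Fewer or more items pass by construction. No paired analysis was possible because each group has 1 library. Leaving out a library was not possible either. Depth limits the 20-nt form, the forms of 25 to 26 nt and the reads with the miR-107 base.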
